A study of Bos taurus with 9 samples.

Results

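The peaks of RNA polymerase II (Pol II) and of trimethylated lysine 9 of histone H3 (H3K9me3) were compared within butyrate-treated MDBK cells, an established epithelial line from bovine kidney. The members were all regions of the butyrate Pol II list (31240 peaks) and of the butyrate H3K9me3 list (89487 peaks), which made 120727 of the 673926 peaks in 8 lists. The cells had been exposed to 5 mM butyrate for 24 h, and the control cells, used here only beside single results, received no butyrate. The series held chromatin immunoprecipitation sequencing (ChIP-seq) libraries for 4 antibodies, against H3K9ac, H3K27ac, Pol II and H3K9me3, in each condition. Each antibody had 1 library per condition, so no difference here has a replicate check and no p-value was computed. The butyrate libraries were all run in lane 5 and the control libraries in lane 4, so that treatment and lane cannot be told apart where the conditions are set side by side. All lists were called against 1 shared input.

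Pol II is the enzyme complex that transcribes protein-coding genes, and it gathers at active promoters, along gene bodies and at active enhancers. H3K9me3 is written by methyltransferases such as SUV39H1 and SETDB1 and bound by HP1 proteins. It is best known from heterochromatin, silenced repeats and, in mammals, clusters of zinc finger genes. Acetylation of lysines 9 and 27 of H3 (H3K9ac and H3K27ac) marks active promoters and enhancers, and butyrate inhibits the deacetylases that remove it. Methyl and acetyl groups cannot occupy the same lysine 9 of the same histone tail, although a nucleosome has a pair of H3 tails and a cell population holds many copies of each locus.

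Each peak was given only by its chromosome and its 2 bounds, with no height, read number or score, so the depth and strength behind a peak are unknown. Both lists were made of short regions. The median Pol II peak was 235 bp long (95% exact interval 234 to 236), and the median H3K9me3 peak was 232 bp (232 to 233). In all, 25.4% of the Pol II peaks and 29.4% of the H3K9me3 peaks had the shortest length in the lists, 199 bp. On the 30 nuclear chromosomes (29 autosomes and X) the Pol II list held 31225 peaks that covered 0.319% of the mapped span, and the H3K9me3 list held 89478 peaks that covered 0.908%. The lists differed in how often they met acetylated positions. Of the Pol II peaks, 64.3% met a butyrate H3K9ac or H3K27ac peak by at least 1 bp, whereas 8.47% of the H3K9me3 peaks did.

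Pol II peaks met H3K9me3 more often than evenly placed intervals did. An H3K9me3 peak overlapped 2061 of 31225 Pol II peaks, or 6.60% (Wilson 95% interval 6.33 to 6.88, which like all intervals here covers counting error only). As a background, intervals of the median Pol II length were placed every 1 kb along the same chromosomes, and 1.67% of them met an H3K9me3 peak. The Pol II share was 3.94 times this background (3.78 to 4.11). The even intervals include sequence in which no peak could have been called, so that a ratio above 1 may in part be common to all lists. The acetyl lists of the same cells give the scale. H3K9ac peaks met H3K9me3 in 4.11% of cases (4736 of 115104), 2.30 times their own background. H3K27ac peaks did so in 2.80% (5240 of 187465), 1.42 times theirs. The Pol II ratio thus lay above both acetyl ratios, and the 3 intervals did not overlap.

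The sharing was largest where Pol II lay away from H3K27ac. Among 11133 Pol II peaks with neither mark, 1169 or 10.5% (9.94 to 11.1) met H3K9me3, 6.46 times the background for their length. Among 1599 peaks with H3K9ac alone the share was 9.94% (8.57 to 11.5). It was 3.06% (2.69 to 3.49) among 7212 peaks with H3K27ac alone, and 4.54% (4.17 to 4.94) among 11281 peaks with both marks. Pol II peaks that bore H3K27ac, the mark more closely tied to active enhancers, were therefore those least often shared with H3K9me3, whether or not H3K9ac was present. Read the other way, 56.7% (54.6 to 58.8) of the Pol II peaks with H3K9me3 had no acetyl peak, against 34.2% (33.6 to 34.7) of the 29164 without H3K9me3.

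**Figure D1:**
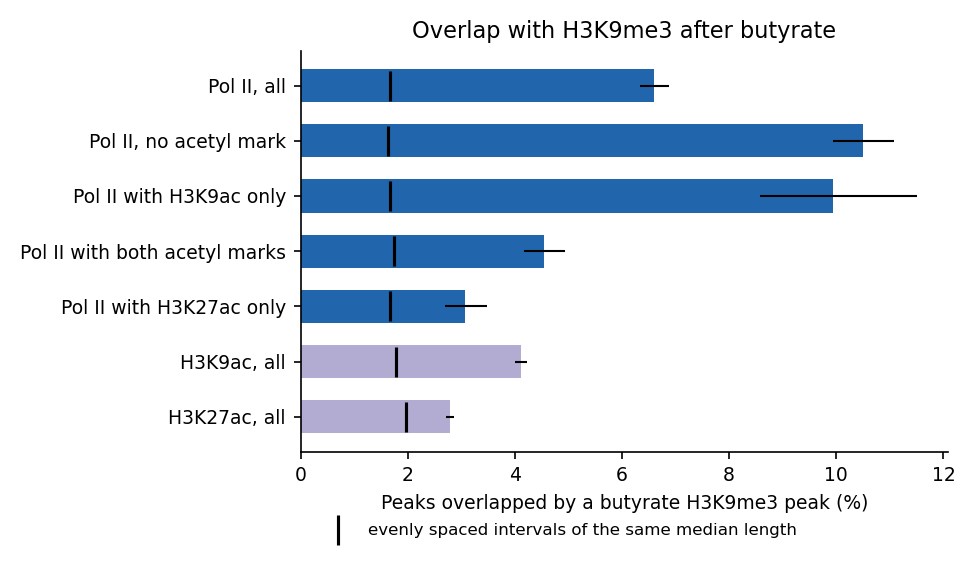
Share of peaks (horizontal axis, percent) that met an H3K9me3 peak by at least 1 bp in butyrate-treated MDBK cells, for all Pol II peaks, for Pol II peaks split by the acetyl marks they met, and for the H3K9ac and H3K27ac lists. Bars give the share with its Wilson 95% interval and the upright marks the share of evenly spaced intervals of the same median length; Pol II peaks with no acetyl mark stand at 10.5% and those with H3K27ac only at 3.06%.

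Chromosomes 5 and 14 carried a large part of these shared positions. They made up 7.74% of the span and held 14.6% of the Pol II peaks, 15.9% of the H3K9me3 peaks and 35.5% (732) of the Pol II peaks that met H3K9me3. Without them the share fell to 4.98% (4.73 to 5.25, 1329 of 26664), 3.28 times the 1.52% of even intervals on the same 28 chromosomes. The order of the classes stayed as it was: 8.34% of 9284 unacetylated Pol II peaks, 6.39% of 1268 with H3K9ac alone, 3.16% of 9607 with both marks and 2.61% of 6505 with H3K27ac alone. The intervals of the first pair of classes overlapped there and in the full lists, and those of the last pair overlapped only without these chromosomes.

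Seen from the H3K9me3 list, contact with Pol II was rare. A Pol II peak met 2078 of 89478 H3K9me3 peaks, 2.32% (2.23 to 2.42), where 0.583% of evenly spaced intervals of the median H3K9me3 length did, a ratio of 3.98. Most of the H3K9me3 list thus had no Pol II peak on it. The minority of 7580 H3K9me3 peaks that also met an acetyl peak was shared with Pol II in 11.8% of cases (11.0 to 12.5). The 81898 without an acetyl peak were shared in 1.45% (1.37 to 1.53), which was still 2.49 times the background.

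Longer H3K9me3 peaks were shared more often. The share with Pol II was 1.66% (1.51 to 1.82) at 199 bp, 3.04% at 300 to 399 bp, 4.93% at 500 to 749 bp and 10.1% (6.53 to 15.2, 19 of 189) at 1000 bp or more. The background for such lengths rose less, from 0.545% to 1.56%. The share went, without chromosomes 5 and 14, from 1.37% to 10.5% (6.58 to 16.4) over the same classes. The shares of Pol II peaks with H3K9me3 did not rise with Pol II length, and over the background for that length they fell. The share was 7.00% at 199 bp, 6.05% at 200 to 299 bp, 7.63% at 300 to 399 bp and 7.52% at 500 to 749 bp, which was 4.49, 3.60, 3.82 and 2.77 times the background. Among the 76 Pol II peaks of 1000 bp or more it was 5.26% (2.07 to 12.8, 4 peaks), against 4.69% of even intervals of that length, a ratio of 1.12 (0.44 to 2.72).

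None of the 3 longest peaks of either list met the other list, but their distances from it varied widely. Even intervals lay a median of 14.4 kb from H3K9me3 and 65.8 kb from Pol II. As a group, H3K9me3 peaks of 1000 bp or more lay a median of 13.0 kb from Pol II, against 42.8 kb for all H3K9me3 peaks. Pol II peaks of 1000 bp or more lay 14.9 kb from H3K9me3, against 11.5 kb for all Pol II peaks. The longest Pol II peak, chr29:44278687-44284186 (UMD3.1 coordinates, as throughout), was 5500 bp long and lay 65.8 kb from the nearest H3K9me3 peak. The next, chr19:11029842-11033210 (3369 bp) and chr9:73304602-73307510 (2909 bp), lay 19.3 kb and 13.9 kb away. All 3 met butyrate H3K27ac and also a Pol II peak of control cells. The longest H3K9me3 peak, chr25:39088045-39090112 (2068 bp), lay 201.4 kb from Pol II and met neither acetyl mark in butyrate cells. The second, chr15:10155151-10157192 (2042 bp), lay only 456 bp from a Pol II peak and met all of the other 6 lists, while chr7:22093971-22096003 (2033 bp) lay 47.9 kb away.

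Where the lists met, the peaks largely coincided. There were 2092 overlapping pairs that shared 361.4 kb, 4.26% of the Pol II bases and 1.50% of the H3K9me3 bases. The Pol II peak lay wholly inside the H3K9me3 peak in 22.7% of the pairs and the reverse in 10.9%, and 3 pairs had the same bounds. In the other 66.3% the peaks were offset, so that neither lay wholly inside the other. The median distance between the 2 centres was 89 bp, and the median shared stretch of 188 bp made up 84.8% of the shorter peak.

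The longest shared stretch was chr29:6581845-6582601, a Pol II peak of 757 bp inside an H3K9me3 peak of 922 bp, and this position was called in 7 of the 8 lists. The next was chr7:69955531-69956094 (564 bp), called in 4 lists. It was followed by chr18:63305113-63305637 (525 bp) and chr14:45661884-45662381 (498 bp), each in 3 lists, which besides the pair itself held control Pol II. The fifth, chr15:32899980-32900475 (496 bp), was called in 5 lists, control Pol II among them. Of these 5 positions, 4 were thus also Pol II peaks in control cells.

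Shared positions as a group recurred in control cells more than other Pol II peaks did. Of the 2061 Pol II peaks with H3K9me3, 21.9% (20.2 to 23.8) met a control Pol II peak, against 7.30% (7.01 to 7.60) of the 29164 without. For control H3K9me3 the shares were 19.4% (17.8 to 21.2) and 3.46% (3.26 to 3.68). The acetyl lists went the other way. Control H3K27ac was met by 24.7% of the shared and 41.1% of the other Pol II peaks, and butyrate H3K27ac by 35.6% and 60.9%. For H3K9ac the shares were 23.5% and 39.4% in control cells and 32.6% and 41.9% in butyrate cells. Positions called in all of the other 6 lists were few, 30 shared peaks (1.46%) and 70 others (0.240%), and 37.5% of the shared against 26.2% of the other Pol II peaks met none of the other 6. Among butyrate peaks that met no control Pol II or control H3K9me3 peak, 4.88% of Pol II peaks were shared with H3K9me3. The same pair of lists in control cells gave 4.97% (2792 of 56225), 11.3 times the even spacing of the smaller control H3K9me3 list of 25628 peaks.

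The surroundings of Pol II peaks differed with the acetyl marks they bore. The density of H3K9me3 peak centres was counted at rising distances from each Pol II centre and divided by the mean density over the span, 33.6 peaks per Mb. Within 0.25 kb it was 3.83 times the mean around all Pol II peaks, 6.10 times around unacetylated and 2.57 times around acetylated ones. Between 0.5 and 1 kb the density around unacetylated Pol II was still 1.86 times the mean (62.6 per Mb, 58.0 to 67.4). Around acetylated Pol II it had dropped to 0.81 times the mean (27.4 per Mb, 25.1 to 29.8), and it was 1.14 times the mean between 2 and 5 kb. Far from the peaks, at 100 to 200 kb, it was 1.21 times the mean around acetylated and 1.26 times around unacetylated Pol II. Over all chromosomes, the trough around acetylated Pol II was seen at the peaks that bore H3K27ac. At 0.5 to 1 kb the density was 0.85 times the mean (28.7 per Mb, 25.7 to 32.0) around peaks with both marks and 0.64 times (21.6 per Mb, 18.4 to 25.3) around those with H3K27ac alone. Pol II peaks with H3K9ac alone had no trough over all chromosomes and were like the unacetylated ones, at 5.84, 2.12, 1.30, 1.48 and 1.39 times the mean in the 5 steps from 0 to 5 kb. The H3K27ac list had a wider trough, at 1.40, 0.70, 0.67, 0.76 and 0.92 times the mean in the same steps. The H3K9ac list had only a slight dip over all chromosomes, at 2.28, 1.02, 0.94, 0.99 and 1.20 times. At 0.5 to 1 kb its density of 31.7 per Mb (30.6 to 32.7) lay just under the mean.

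The trough was deeper without chromosomes 5 and 14. Against a mean of 30.7 per Mb, the density around acetylated Pol II peaks was 2.07 times the mean within 0.25 kb, 0.83 times at 0.25 to 0.5 kb and 0.65 times (19.9 per Mb, 17.9 to 22.1) at 0.5 to 1 kb, then 0.81 and 1.05 times. Around peaks with H3K9ac alone it was 0.72 times at 0.5 to 1 kb, with an interval (14.7 to 31.9 per Mb) that spans the mean. That interval also holds the values around peaks with both marks (20.7 per Mb) and with H3K27ac alone (18.3 per Mb). Without these chromosomes the trough can thus not be assigned to peaks with H3K27ac only. Around unacetylated peaks the density stayed above the mean at every step to 5 kb, at 5.31, 2.07, 1.66, 1.33 and 1.35 times. At 100 to 200 kb it was 1.17 times the mean around unacetylated and 1.18 times around acetylated peaks. The H3K9ac list had a shallow trough without these chromosomes, at 1.95, 0.88, 0.84, 0.90 and 1.14 times in the 5 steps to 5 kb. At 0.5 to 1 kb this was 25.7 per Mb (24.8 to 26.7).

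**Figure D2:**
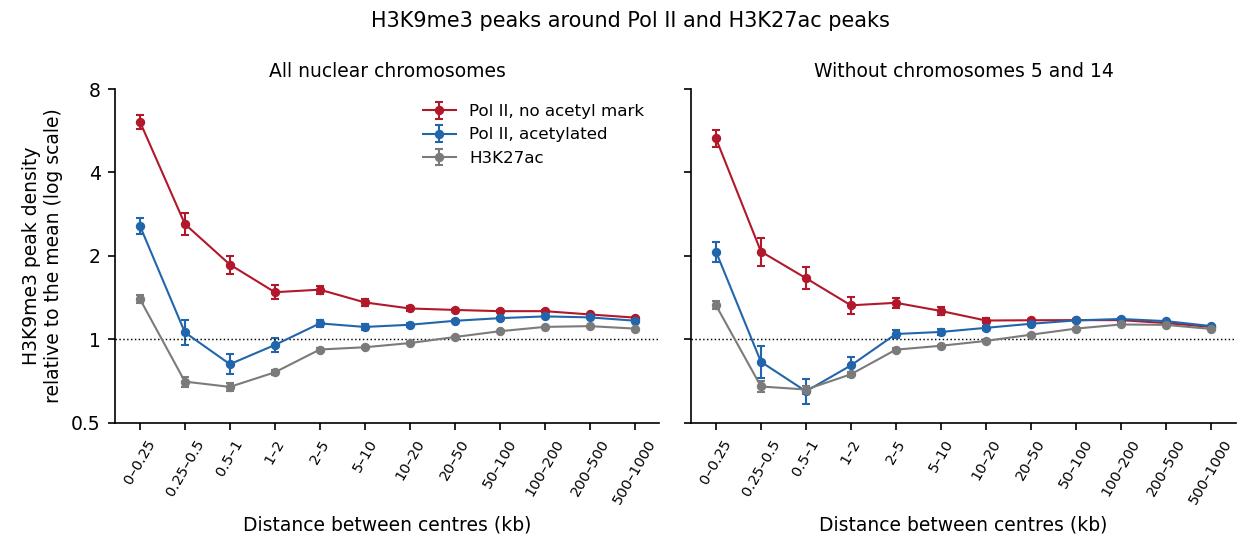
Density of butyrate H3K9me3 peak centres (vertical axis, relative to the mean of the span, log scale) against steps of distance from the centres of unacetylated Pol II, acetylated Pol II or H3K27ac peaks of butyrate cells (horizontal axis, kb), for all nuclear chromosomes and without chromosomes 5 and 14, with Poisson 95% intervals. Around acetylated Pol II peaks the density falls from 2.57 times the mean within 0.25 kb to 0.81 times at 0.5 to 1 kb (2.07 and 0.65 times without chromosomes 5 and 14), whereas around unacetylated Pol II peaks it stays above the mean.

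Distances told the same in bases. The median Pol II peak lay 11.5 kb (11.3 to 11.8) from the nearest H3K9me3 peak, counting overlaps as 0, where even intervals lay 14.4 kb away. The median was 8.93 kb for unacetylated peaks, 9.37 kb for those with H3K9ac alone, 12.1 kb with both marks and 15.0 kb (14.4 to 15.6) with H3K27ac alone. H3K9ac peaks lay 11.9 kb and H3K27ac peaks 15.9 kb from H3K9me3. The Pol II median was 13.4 kb (13.1 to 13.6) without chromosomes 5 and 14, against 15.4 kb for even intervals. Leaving out peaks that touched H3K9me3, 42.7% of the other Pol II peaks lay within 10 kb of one, against 39.2% of even intervals. The share was 46.9% for unacetylated peaks and 47.0% for those with H3K9ac alone, against 41.9% with both marks and 37.0% with H3K27ac alone. On the 28 chromosomes other than 5 and 14 these shares were 42.5%, 41.1%, 38.0% and 35.6%, against 37.4% of even intervals. From the H3K9me3 side the median distance to Pol II was 42.8 kb, against 65.8 kb for even intervals.

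**Figure D3:**
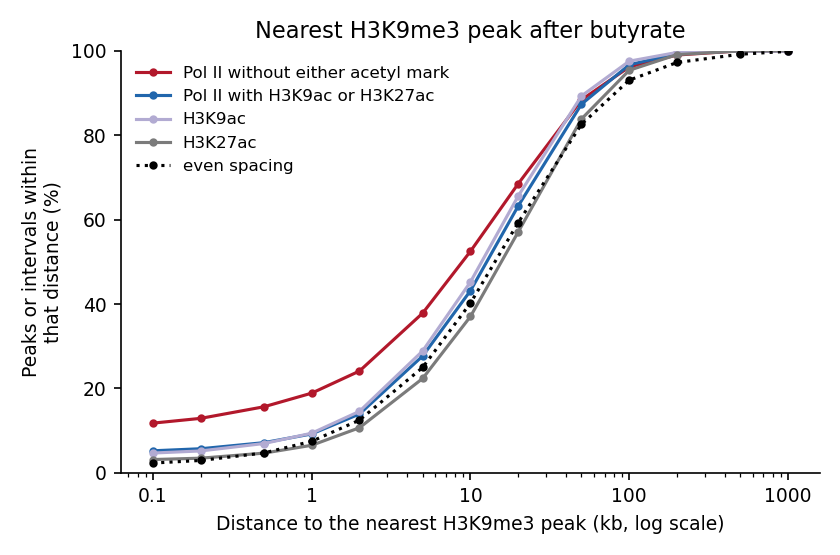
Cumulative share (vertical axis, percent) of Pol II peaks with and without an acetyl mark, H3K9ac peaks, H3K27ac peaks and evenly spaced intervals within a given distance of the nearest butyrate H3K9me3 peak (horizontal axis, kb, log scale). Unacetylated Pol II peaks, with a median of 8.93 kb, lie nearest, and the median of the H3K27ac list is 15.9 kb against 14.4 kb for evenly spaced intervals.

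Over windows of 1 Mb the lists rose together rather than apart. Across 2647 windows, peak numbers of Pol II and H3K9me3 had a Spearman correlation of 0.438 (Pearson 0.324), given as a description, since neighbouring windows are not independent and all lists share the mappability and base composition of a window. For comparison, Pol II with H3K27ac gave 0.885 and H3K9me3 with H3K27ac 0.300. Holding the rank of H3K27ac fixed left a partial correlation of 0.389 between Pol II and H3K9me3, and holding H3K9ac fixed left 0.187. Without chromosomes 5 and 14 (2442 windows) the values were 0.415 for Spearman, 0.251 for Pearson, 0.276 given H3K27ac and 0.0864 given H3K9ac. Leaving out X as well gave 0.340, with 0.199 given H3K27ac and 0.0474 given H3K9ac. The correlation depended on scale, at 0.181 in windows of 100 kb and 0.529 in windows of 5 Mb.

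The relation was a rise followed by a plateau. In the quintile of windows with fewest Pol II peaks (0 to 2) the median number of H3K9me3 peaks was 15. It was 29, 34, 35 and 34 in the next 4 quintiles, the last of which held 20 to 84 Pol II peaks. H3K27ac over the same quintiles went on rising, with medians of 1, 20, 56, 96 and 161. Without chromosomes 5 and 14 the H3K9me3 medians were 15, 27, 33, 34 and 32. Above the second quintile, more Pol II was thus accompanied by little further change in the median of H3K9me3, and among windows with a peak in each of the 4 butyrate lists the Spearman correlation was 0.255.

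The windows richest in each list overlapped in part. Of the 265 windows in the top decile of Pol II, 57 (21.5%) were also in the top decile of H3K9me3, which made up 10% of all windows, and 47 of the 57 lay on chromosomes 5 and 14. With those chromosomes left out and the deciles drawn anew, 35 of 246 Pol II-rich windows (14.2%) were H3K9me3-rich, against 10.2% of all windows. Windows rich in 1 list and poor in the other were rarer than the share of poor windows among all. There were 93 Pol II-rich windows (35.1%) with fewer H3K9me3 peaks than the median window, a class that made up 49.2% of all windows. Without chromosomes 5 and 14 there were 103 (41.9%), against 49.7% of all. Of the H3K9me3-rich windows, 55 (20.8%) had fewer Pol II peaks than the median, against 48.1% of all windows, and 72 (28.8%) against 47.3% without the 2 chromosomes.

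**Figure D4:**
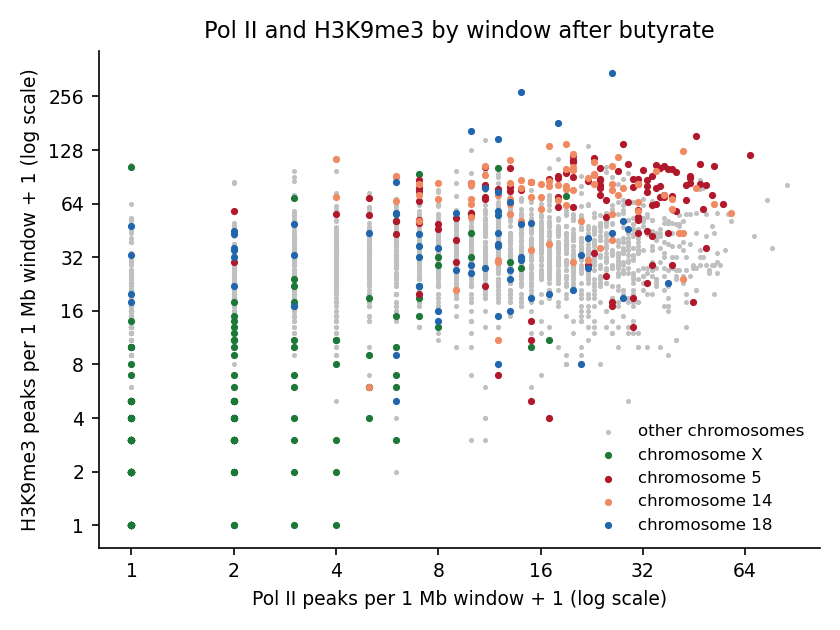
Number of butyrate Pol II peaks (horizontal axis) and butyrate H3K9me3 peaks (vertical axis) in each 1 Mb window, 1 point per window, both plus 1 on log scales, with windows of chromosomes 5, 14, 18 and X in colour. The cloud rises at low Pol II numbers and flattens, most windows rich in both lists (47 of 57) are those of chromosomes 5 and 14, and the window with 344 H3K9me3 peaks is on chromosome 18.

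The windows with the highest ranks in both lists all lay on chromosome 5. They were chr5:38000001-39000000 with 65 Pol II and 119 H3K9me3 peaks, chr5:18000001-19000000 with 51 and 103, and chr5:34000001-35000000 with 46 and 106. In them 9, 10 and 7 Pol II peaks met H3K9me3, and all 3 were also rich in H3K27ac, with 270, 177 and 175 peaks. On the other chromosomes the leading windows were chr20:21000001-22000000 (46 Pol II, 86 H3K9me3, 6 shared), chr15:43000001-44000000 (84, 80 and 9) and chr1:21000001-22000000 (47, 77 and 2). The chromosome 15 window had the most Pol II peaks of all windows and 421 H3K27ac peaks.

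The windows with the largest rank differences between the lists were not alike. The 3 furthest towards Pol II still held some H3K9me3, whereas the 3 furthest towards H3K9me3 held no Pol II. This contrast follows in part from the ranking and is no result about the lists. Of the 2647 windows, 295 had no Pol II peak and tied at the lowest rank. The 19 windows without an H3K9me3 peak all lay on X. Those furthest towards Pol II were chr19:23000001-24000000 with 37 Pol II and 8 H3K9me3 peaks, chr24:43000001-44000000 with 39 and 10, and chr29:44000001-45000000 with 39 and 10, the last of which holds the longest Pol II peak. None of their Pol II peaks met H3K9me3. This says little about the lists, because the windows were picked for scarce H3K9me3, which covered 1.90, 2.13 and 2.54 kb of them. Those furthest towards H3K9me3 were chr16:76000001-77000000 with 104 H3K9me3 peaks, X:147000001-148000000 with 102 and chr27:31000001-32000000 with 63. They had 0 Pol II peaks each and 5, 5 and 12 H3K27ac peaks. In control cells they held 32, 3 and 15 Pol II peaks and 10, 2 and 3 H3K9me3 peaks, from lists of 56240 and 25628 peaks. The window with the most H3K9me3 peaks, chr18:47000001-48000000, picked after its values were seen, held 344 of them with 25 Pol II peaks, of which 5 were shared.

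Within single chromosomes the window correlation was mostly positive but weaker. It was above 0 on 27 of the 30 chromosomes with a median of 0.273, above 0.5 on 6, and highest on chromosome 6 at 0.688. It was below 0 on chromosomes 13 (-0.13), 19 (-0.28) and 25 (-0.21). On chromosomes 5 and 14, with 24.3 and 19.1 Pol II peaks per Mb, it was 0.247 and 0.0116, and given H3K27ac it was 0.486 and 0.401. Given H3K27ac it was above 0 on 26 chromosomes, with a median of 0.175. The overlap ratio was above 1 on each of the 30 chromosomes, with the lower bound of its interval above 1 as well, a median of 3.02, a lowest value of 1.93 on chromosomes 22 and 23 and a highest of 49.8 on X. Distances were less uniform: the median Pol II peak lay nearer to H3K9me3 than even intervals on 18 chromosomes and farther on 12.

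**Figure D5:**
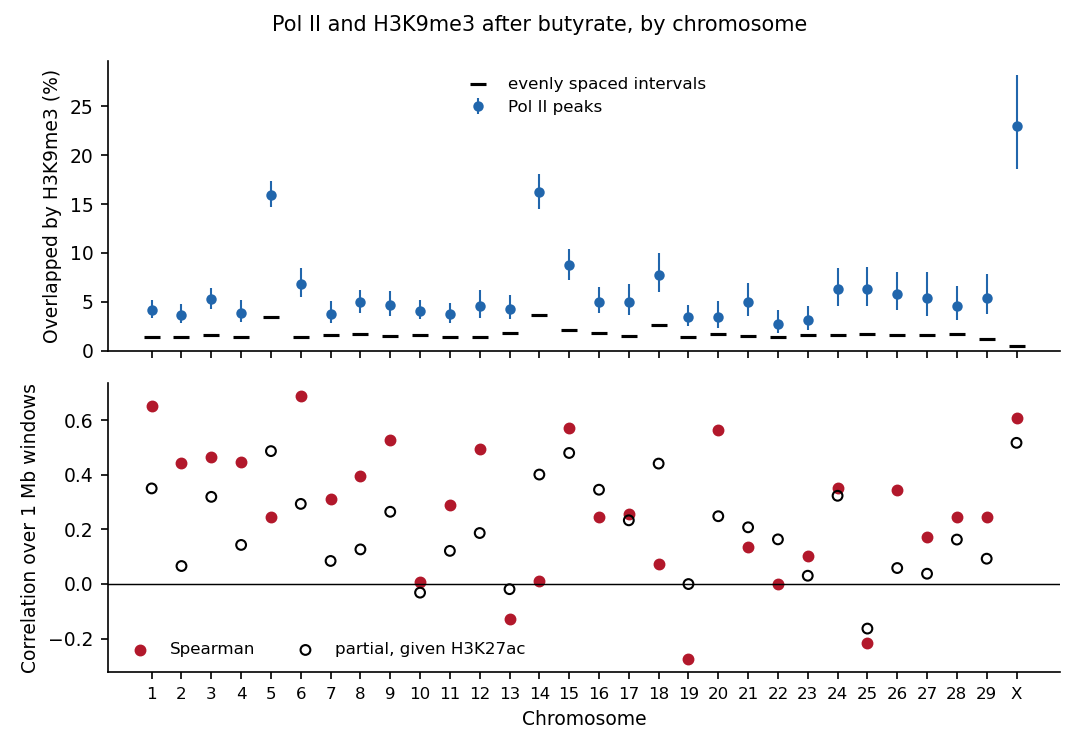
For each of the 30 nuclear chromosomes of butyrate-treated MDBK cells (horizontal axis), the upper panel gives the percent of Pol II peaks that met H3K9me3 with Wilson 95% intervals (points) and that of evenly spaced intervals (dashes), and the lower panel the Spearman and the partial correlation over 1 Mb windows. The points lie above the dashes on every chromosome and highest on X at 23.0%, while the Spearman correlation ranges from -0.28 on chromosome 19 to 0.688 on chromosome 6.

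The X chromosome stood apart from the autosomes in its share. It held few peaks of either list, 291 Pol II (1.96 per Mb) and 1394 H3K9me3 (9.37 per Mb). Yet 67 of the 291 Pol II peaks, 23.0% (18.6 to 28.2), met H3K9me3, where 0.462% of even intervals on X did. On chromosomes 5 and 14 the shares were 16.0% (14.7 to 17.3) and 16.2% (14.5 to 18.1) against 3.45% and 3.69% of even intervals. The 67 shared X peaks lay in 28 windows and the 224 others in 75, with 9 and 16 in the fullest. The window with most shared peaks, X:36000001-37000000, picked after its values were seen, held 11 Pol II and 101 H3K9me3 peaks with 0 H3K9ac and 2 H3K27ac peaks, and in control cells 24 Pol II and 30 H3K9me3 peaks. Of the 67 shared X peaks, 57 (85.1%, 74.7 to 91.7) had no acetyl mark, against 61.6% (55.1 to 67.7) of the 224 other X peaks. In all, 35 of the 67 (52.2%) met a control Pol II or control H3K9me3 peak, against 9.82% of the other X peaks. The corresponding shares were 42.3% and 24.4% on chromosomes 5 and 14, and 25.1% and 7.86% on the other autosomes.

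H3K9me3 peaks also formed runs, and Pol II was found inside them. H3K9me3 peaks less than 10 kb apart were joined, and runs of at least 5 peaks were called domains. There were 2598, with a median length of 18.8 kb, which took up 2.05% of the span and held 20.9% of the H3K9me3 peaks. They held 1169 Pol II peaks (3.74%, 3.54 to 3.96), 1.83 times their share of the span, spread over 790 domains (30.4%). The same ratio was 1.25 for H3K9ac and 0.79 for H3K27ac, so that of the 3 lists only the H3K27ac list was thinner inside domains than over the span. Of the Pol II peaks inside domains 57.1% had no acetyl mark, against 34.8% outside. Without chromosomes 5 and 14, which held 430 and 331 of the domains, the ratios were 1.41 for Pol II, 1.02 for H3K9ac and 0.75 for H3K27ac, and 59.9% of the Pol II peaks inside had no acetyl mark against 34.3% outside.

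The densest domains, with at least 20 H3K9me3 peaks, numbered 55, of which 24 lay on chromosome 18 and 11 on chromosome 5. A Pol II peak lay in 37 of them (67.3%), a share that makes no allowance for their length. Their median length was 58.2 kb, against 18.8 kb for all domains. They held 80 Pol II peaks, 0.256% of the list (0.206 to 0.319) in 0.128% of the span. This was 2.00 times their share of the span, against 1.83 times for all domains. Without chromosomes 5 and 14, with 44 Pol II peaks in the densest domains, these ratios were 1.65 and 1.41. The counting error of so few peaks covers both differences. The longest domain of all was chr5:37909152-38040172 (131.0 kb), with 53 H3K9me3 peaks and 4 Pol II peaks, all of which met an acetyl peak and 3 of which met H3K9me3. The next, chr14:12895926-13005069 (109.1 kb), held 30 H3K9me3 peaks and 3 Pol II peaks, none acetylated. Domain chr18:60273756-60376236 (102.5 kb) had 56 H3K9me3 peaks and 1 Pol II peak, chr5:73139879-73237100 (97.2 kb) had 24 and 0, and chr14:80678202-80771753 (93.6 kb) had 27 and 1. Dense H3K9me3 runs of similar length thus held from 0 to 4 Pol II peaks, with and without acetyl marks.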

How the data were processed

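The study performed ChIP-seq on MDBK cells with 4 antibodies in control and butyrate-treated cells, with 75 nt reads. Per the labels, reads were trimmed with Trim Galore 0.4.1, aligned with BWA to the bovine build UMD3.1, and peaks were called with MACS2 against the input. The authors deposited 1 peak list per library with chromosome, start and end in bp only, and no replicates were pooled. Peak calling sets which weak regions enter a list, and the lists lack the scores needed to rank them. The input has no list here and its reads were not analysed here. Starts were read as counted from 0 and printed with 1 added. Since the shortest difference of end and start is 199 bp in every list, starts may instead be counted from 1.

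Overlap meant at least 1 bp. Distances were gaps between nearest edges. The background was a grid of intervals of each set's median length, 1 per 1 kb, over the span up to the last peak of each chromosome (2660 Mb in all). Windows were 1 Mb. Wilson, exact binomial and Poisson 95% intervals cover counting error only. With 1 library per group there was no test. The windows named were the 3 with the highest lower rank of the 2 lists and the 3 with the largest rank differences each way. The peaks, shared stretches and domains named were the longest. Members and lists were chosen with earlier results of these data known. Mitochondrial peaks were left out. Genes and sequences at these positions were not analysed here, because the annotation at hand is of another build. Alternatives were other overlap, length, window and chromosome choices. The code was tested on simulated data.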

Additional observations from a re-analysis of the deposited data

Results flagged for a closer look

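On the mitochondrial genome, which the comparisons leave out, butyrate Pol II and H3K9me3 peaks shared 11.1 kb, against 10.5 kb shared by the control pair. Mitochondrial DNA carries no histones. The Pol II list had 15 peaks there (11.6 kb) and the H3K9me3 list 9 (14.7 kb), and the butyrate H3K9ac and H3K27ac lists covered 11.4 kb and 13.4 kb.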

How the results depend on the processing

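Of 66 values under other settings none reversed, 16 stayed within their interval or spread and 50 moved. Values are given in the order share of Pol II peaks with H3K9me3 (6.60% as reported), its log2 ratio over even spacing (1.98), share of H3K9me3 peaks with Pol II (2.32%), log2 ratio of the distance (-0.32), Spearman correlation (0.438) and partial correlation given H3K27ac (0.389), for those that moved. Without chromosomes 5 and 14 they were 4.98%, 1.72, 1.78%, -0.20 and, for the partial correlation, 0.276. Autosomes alone gave a log2 ratio of 1.88, a distance of -0.21, and correlations of 0.372 and 0.337. An overlap of at least 50% of the shorter peak gave 5.13%, 2.43 and 1.79%. Joining peaks less than 1 kb apart gave 7.59%, 2.09, 2.65%, -0.37 and a partial correlation of 0.425. Dropping peaks of the shortest length gave 5.17% and 1.92%. Keeping peaks of at least 500 bp in both lists gave 0.426% of 1174 Pol II peaks, 1.43, 0.145%, -1.11, 0.244 and 0.0877. As many of the longest H3K9me3 peaks as there are Pol II peaks gave 3.35%, 2.25, 3.33%, -0.47 and a Spearman correlation of 0.505. Windows of 100 kb gave 0.181 and 0.182, windows of 5 Mb 0.529 and 0.427, windows with a peak in each of the 4 butyrate lists 0.255 and 0.326, and covered bases a partial correlation of 0.355. Of the settings chosen after seeing the data, the first 50% of the entries of both lists gave 4.30%, 2.30, 1.52%, -0.44, 0.361 and 0.428. Peaks meeting no control Pol II or control H3K9me3 peak gave 4.88%, 1.72, 1.69%, -0.16, 0.377 and 0.327, and H3K9ac in place of H3K27ac a partial correlation of 0.187. The causes of these shifts were not tested. No paired analysis was possible because all groups consist of a single library. The lists give no depth.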
